A study of Mus musculus with 10 samples.

Results

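The aminoacyl-tRNA synthetases are the enzymes that join each amino acid to its transfer RNA, and their transcripts were compared in melanoma tumours of mice between the Exercise and the non-Exercise group. Members were the genes whose symbol follows the pattern of a letter for the amino acid and "ars", with or without a 1 or 2, plus Eprs, Farsa and Farsb. Of 19938 genes tested, 34 were members, measured by 35 probe sets. They fell into 18 genes of cytosolic enzymes and 16 of mitochondrial enzymes, whose symbols end in 2. Kars and Gars each make an enzyme for both compartments and were counted as cytosolic. Iars alone had 2 probe sets. Aars was seen only by a probe set shared with Exosc6 and is no member.

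The Exercise group was 5 tumours (arrays 300, 301, 306, 309 and 310) and the non-Exercise group 5 tumours (arrays 326, 327, 329, 330 and 331), 1 array each. All 10 samples were labelled male. The series title names voluntary exercise and natural killer cells, and the comparison asks which transcripts differed with exercise. The strain, the age, the tumour line and the length of exercise are not given in the labels, nor is it said that each tumour came from its own animal. The p-values therefore cover the spread between these samples, which may be technical.

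In the cytosol a synthetase charges its tRNA for the ribosome, and several of these enzymes sit together with scaffold proteins in the multisynthetase complex. Mitochondria translate their own few mRNAs with a separate set of enzymes that are also encoded in the nucleus. When amino acids run short, uncharged tRNA activates the kinase GCN2, which phosphorylates eIF2alpha. This favours translation of ATF4, a transcription factor whose known targets include many cytosolic synthetases, amino acid transporters and enzymes of amino acid synthesis.

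Transcripts of 5 cytosolic synthetases were lower in the Exercise tumours: Yars, Nars, Wars, Hars and Qars, which charge tyrosine, asparagine, tryptophan, histidine and glutamine tRNAs. Their log2 changes, Exercise minus non-Exercise, lay between -0.36 and -0.18. No cytosolic gene was higher, and 13 of 18 did not pass the test (limma, adjusted p under 0.05 over all genes). Of the 16 mitochondrial genes, 0 were lower and 0 higher. Over all genes, 10.6% were lower and 6.35% higher, against 27.8% and 0 of the cytosolic members.

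Of the 10 arrays, 3 Exercise arrays (306, 309 and 310) stood apart. Alb, the plasma protein albumin made by hepatocytes, reached 12.77, 12.97 and 12.28 there, with the other 7 arrays between 6.84 and 9.22. The mean of 13 hepatocyte markers, each centred on its mean over the 10 arrays, ranged from -0.72 to 1.58 in the Exercise group and from -0.70 to -0.33 in the non-Exercise group, and 2 of the 13 passed the test, both higher. Xist, the RNA that coats the inactive X chromosome of females, was at 7.20 in Exercise array 301 and between 9.50 and 11.72 in the other 9 arrays, all labelled male. The Y-linked genes Kdm5d and Eif2s3y lay between 8.74 and 9.44 and between 7.24 and 7.70 over the 10 arrays. Melanocytic markers were present, and 0 of 10 passed the test in limma, with 2 (Sox10 and Tyr) lower at an unadjusted p under 0.05. Tyr passed in the table as deposited, Tyr and Sox10 passed with arrays centred on their medians, and Sox10 at -0.22 and Trpm1 at -0.33 passed without arrays 306, 309 and 310 (limma adjusted p = 0.0250 and 0.0392), all lower. Their mean centred level ran from -0.12 to 0.069 in the Exercise group and from -0.067 to 0.081 in the non-Exercise group.

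Promoters of 4 cytosolic members held the letters TGATGNAA, the core of the element to which C/EBP and ATF proteins bind, and are shown because Yars passed the test while Tars, Gars and Iars did not. Windows ran from 250 bases before to 50 bases after a start site, from RefSeq on GRCm38.p6, and both strands were searched. The table held 26 windows for 25 of the 34 members. Cars, Hars, Hars2, Lars, Nars, Pars2, Rars, Vars and Wars had no entry. Capitals mark the match, which lay on the gene's own strand in Yars and on the other strand in Gars, Iars and Tars. The windows were Yars at chr4:129189653-129189952 on the plus strand, Tars at chr15:11399609-11399908 on the minus strand, Gars at chr6:55037751-55038050 on the plus strand and Iars at chr13:49681880-49682179 on the plus strand.
Yars: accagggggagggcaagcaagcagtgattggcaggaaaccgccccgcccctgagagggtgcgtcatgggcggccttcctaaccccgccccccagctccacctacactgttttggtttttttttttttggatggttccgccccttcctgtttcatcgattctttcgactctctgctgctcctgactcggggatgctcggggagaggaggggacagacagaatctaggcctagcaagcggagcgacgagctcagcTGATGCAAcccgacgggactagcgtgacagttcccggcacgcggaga
Tars: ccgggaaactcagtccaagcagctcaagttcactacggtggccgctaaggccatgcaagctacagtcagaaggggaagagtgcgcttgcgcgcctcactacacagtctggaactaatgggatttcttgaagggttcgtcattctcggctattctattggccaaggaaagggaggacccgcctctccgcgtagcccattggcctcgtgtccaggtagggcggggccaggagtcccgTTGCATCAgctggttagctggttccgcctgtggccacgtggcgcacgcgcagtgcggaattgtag
Gars: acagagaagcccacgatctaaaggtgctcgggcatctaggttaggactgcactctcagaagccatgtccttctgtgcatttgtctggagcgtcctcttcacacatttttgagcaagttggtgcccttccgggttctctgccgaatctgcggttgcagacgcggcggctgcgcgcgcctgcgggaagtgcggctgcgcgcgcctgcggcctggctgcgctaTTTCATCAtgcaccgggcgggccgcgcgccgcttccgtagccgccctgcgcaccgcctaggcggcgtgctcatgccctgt
Iars: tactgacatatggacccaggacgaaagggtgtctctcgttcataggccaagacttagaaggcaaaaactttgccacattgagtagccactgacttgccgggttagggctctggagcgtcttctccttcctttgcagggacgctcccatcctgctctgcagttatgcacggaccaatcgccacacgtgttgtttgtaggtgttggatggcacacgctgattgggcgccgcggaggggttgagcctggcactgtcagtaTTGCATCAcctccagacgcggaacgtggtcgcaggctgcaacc
The first base of the match in the gene's direction lay at position 4 in Yars, -15 in Tars, -30 in Gars and 8 in Iars, counted from the start site. These 4 windows were 15.4% of the members' windows, and 3.97% of 32851 windows of all genes held the letters. CACGTG, the E-box, was in 4 member windows as well, those of Ears2, Farsb, Iars and Tars, which is 15.4% against 7.15% of all windows. In Iars and Tars the E-box did not overlap the first motif. A match is a description of letters and was not tested as a site.

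Yars, the tyrosyl-tRNA synthetase whose window is printed first, was at 11.39, 11.53, 11.60, 11.45 and 11.29 in Exercise tumours and at 11.70, 11.81, 11.92, 11.87 and 11.74 in non-Exercise tumours, on the log2 scale. Every Exercise tumour was below every non-Exercise tumour. The means were 11.45 ± 0.12 and 11.81 ± 0.09 (SD, n = 5 each), and the log2 change was -0.36 ± 0.064 (SE, limma adjusted p = 0.00199), which is 1.28-fold lower. In bulk tumour RNA, fewer cells of a type and less RNA per cell cannot be told apart.

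Nars, the asparaginyl-tRNA synthetase, was at 11.95, 12.08, 11.87, 11.89 and 11.69 in Exercise tumours and at 12.04, 12.13, 12.29, 12.20 and 12.26 in non-Exercise tumours. Exercise array 301 overlapped the non-Exercise range, and the other 4 Exercise arrays lay below it. The change was -0.29 ± 0.069 (SE, limma adjusted p = 0.0111). Wars, the tryptophanyl-tRNA synthetase, was at 11.97, 12.06, 12.15, 12.13 and 11.78 in Exercise tumours and at 12.23, 12.22, 12.30, 12.35 and 12.30 in non-Exercise tumours. The groups did not overlap. The Wars change was -0.26 ± 0.064 (SE, limma adjusted p = 0.0123).

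Hars, the histidyl-tRNA synthetase, was at 10.27, 10.38, 10.31, 10.31 and 10.003 in Exercise tumours and at 10.46, 10.56, 10.55, 10.47 and 10.42 in non-Exercise tumours. The groups did not overlap, and Exercise array 310 was the lowest. The change was -0.24 ± 0.072 (SE, limma adjusted p = 0.0364). Hars was the least stable of the 5 calls: its adjusted p lay between 0.0247 and 0.0915 with 1 array left out at a time, and was above 0.05 without array 300, 310, 326, 327, 329 or 330. Qars, the glutaminyl-tRNA synthetase of the multisynthetase complex, was at 11.64, 11.78, 11.83, 11.83 and 11.71 in Exercise tumours and at 11.99, 11.95, 11.91, 11.96 and 11.89 in non-Exercise tumours. These groups did not overlap either. The Qars change was -0.18 ± 0.049 (SE, limma adjusted p = 0.0195), and without non-Exercise array 326 the adjusted p was 0.0598.

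**Figure D1:**
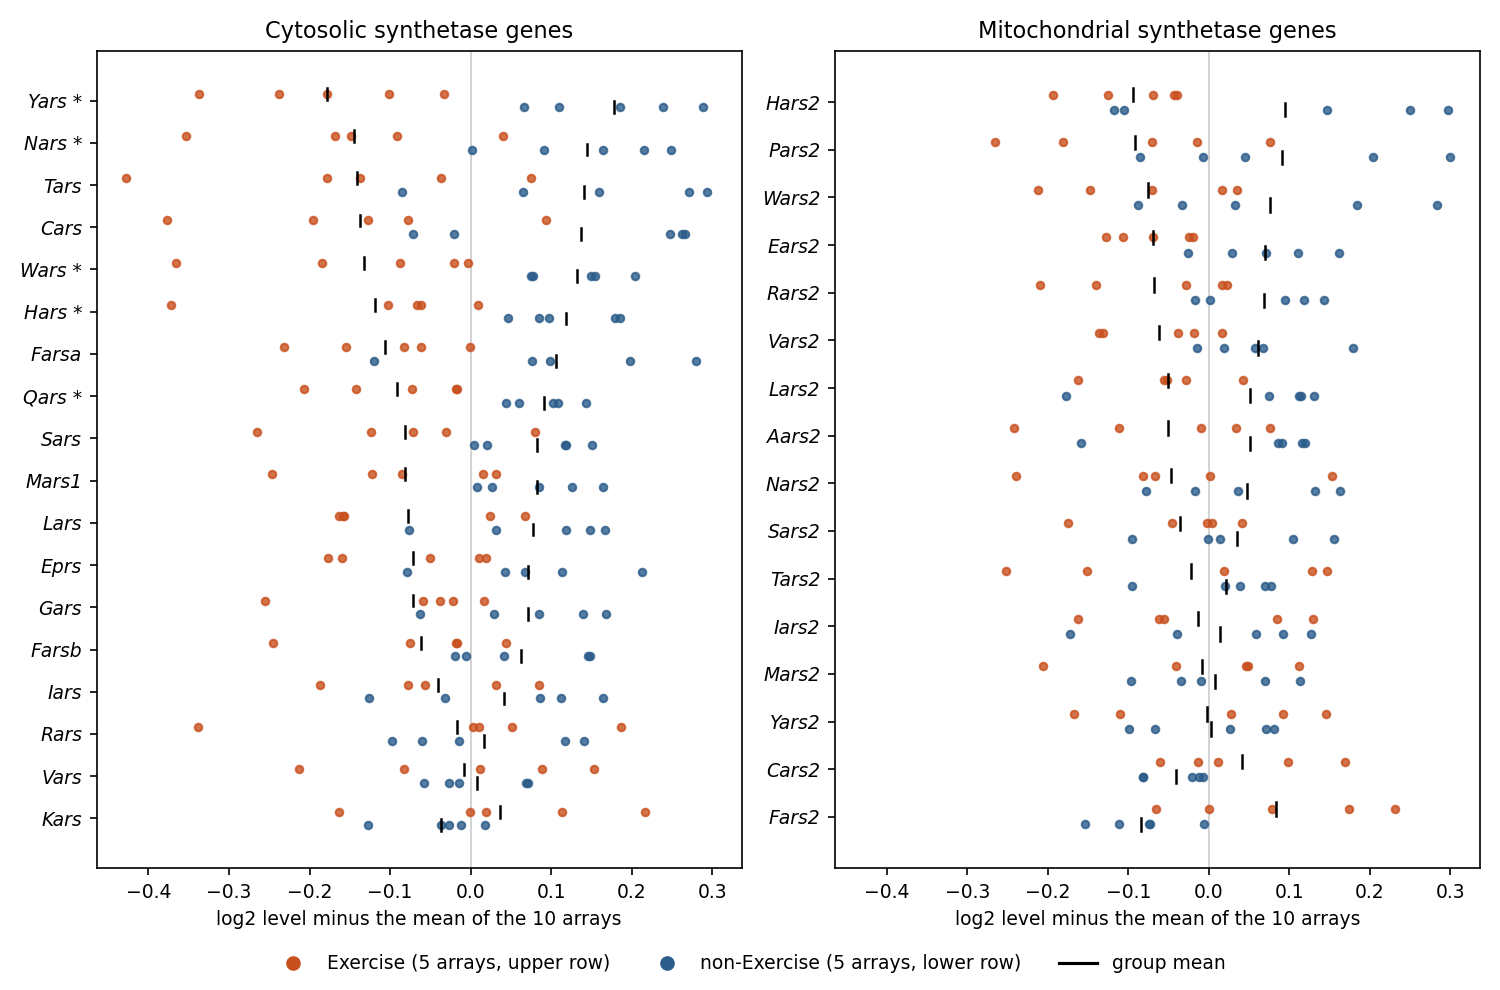
Log2 level of each synthetase gene minus its mean over the 10 arrays, for 18 cytosolic genes (left) and 16 mitochondrial genes (right); orange points are the 5 Exercise arrays, blue points the 5 non-Exercise arrays, black ticks the group means, and an asterisk marks an adjusted p under 0.05 in limma. Yars, Wars, Hars and Qars show no overlap between groups, and in Nars array 301 overlaps.

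The log2 change was negative in 17 of the 18 cytosolic genes, with a median of -0.16. Over all genes the median was -0.024 and 57.1% of changes were negative. All 5 Exercise arrays lay below all 5 non-Exercise arrays in 4 cytosolic genes (Yars, Wars, Hars and Qars), a pattern that 8.33% of all genes had. The opposite order, found in 3.74% of all genes, occurred in 0 members. At an unadjusted p under 0.05 in limma, 14 cytosolic genes were lower, against 17.96% of all genes.

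Other cytosolic genes did not pass, some of them just outside the threshold. Tars, the threonyl-tRNA synthetase, had a change of -0.28 ± 0.096 (SE, limma adjusted p = 0.0583), and was at 10.16, 10.37, 10.26, 9.87 and 10.11 in Exercise tumours and at 10.36, 10.45, 10.57, 10.21 and 10.59 in non-Exercise tumours. Cars, the cysteinyl-tRNA synthetase, was at 11.02, 11.31, 11.14, 11.09 and 10.84 in Exercise tumours and at 11.15, 11.20, 11.48, 11.48 and 11.47 in non-Exercise tumours, with a change of -0.27 ± 0.091 (SE, limma adjusted p = 0.0540). In both genes the groups overlapped. Farsa, which makes the alpha subunit of phenylalanyl-tRNA synthetase, had a change of -0.21 ± 0.072 (SE, limma adjusted p = 0.0562), and Farsb, which makes its beta subunit, one of -0.12 ± 0.058 (SE, limma adjusted p = 0.170). Sars, for serine, differed by -0.16 (limma adjusted p = 0.0661) and Gars, for glycine, by -0.14 (limma adjusted p = 0.113).

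The multisynthetase complex holds 7 of the synthetases measured. Qars passed the test among them, and the 7 changes ran from -0.18 to 0.074 with a median of -0.14. Outside the complex 4 of 11 genes passed, and changes ran from -0.36 to -0.017 with a median of -0.24. The share of all genes that were lower was 10.6%, and the difference between the roles was not tested. Within the complex Mars1, for methionine, differed by -0.16 (limma adjusted p = 0.0894), Lars, for leucine, by -0.15 (0.152) and Eprs, which charges glutamate and proline tRNAs, by -0.14 (0.142). Iars, for isoleucine, differed by -0.082 (limma adjusted p = 0.480) and Rars, for arginine, by -0.034 (0.860). Vars, for valine and outside the complex, differed by -0.017 (limma adjusted p = 0.923). The second probe set of Iars gave -0.12 (limma adjusted p = 0.450 when every probe set was tested).

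Kars, the lysyl-tRNA synthetase, was the cytosolic gene with a positive change. It was at 12.21, 12.19, 12.41, 12.30 and 12.03 in Exercise tumours and at 12.18, 12.15, 12.21, 12.16 and 12.06 in non-Exercise tumours. The groups overlapped, and the change of 0.074 had a 95% interval of -0.059 to 0.21 (limma adjusted p = 0.505). With each array centred on its median the Kars change was -0.019. The probe set shared by Aars and Exosc6 differed by -0.11, without a test, at 11.83, 12.07, 12.01, 11.995 and 11.75 in Exercise tumours and at 11.93, 11.93, 12.10, 12.13 and 12.13 in non-Exercise tumours.

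**Figure D2:**
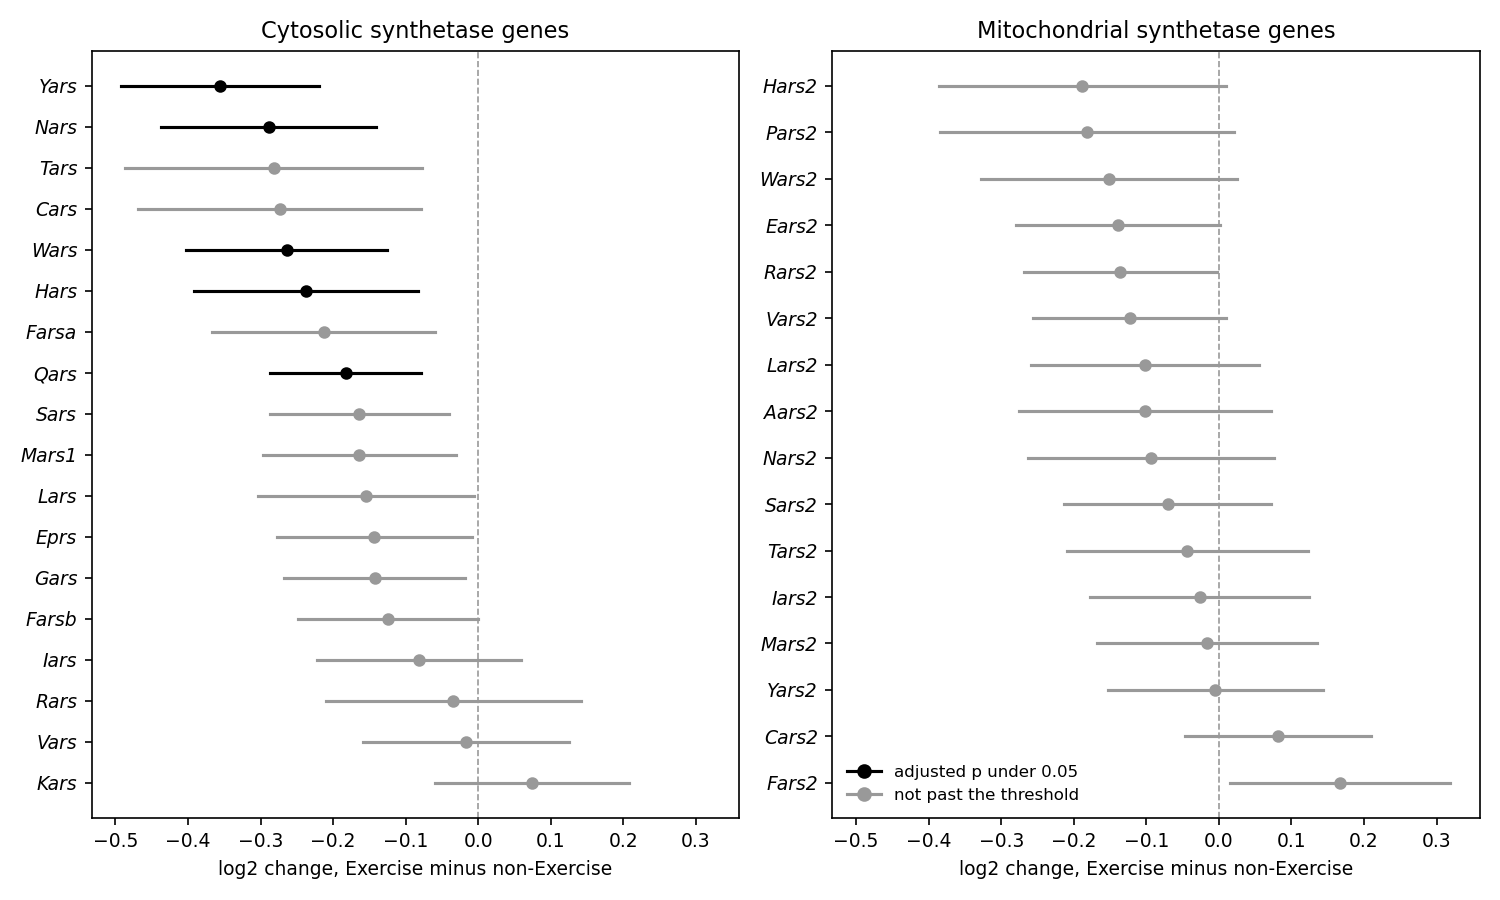
Log2 change, Exercise minus non-Exercise, of each cytosolic (left) and mitochondrial (right) synthetase gene with its 95% interval; black marks an adjusted p under 0.05 and grey a gene that did not pass. The 5 black genes are cytosolic, and their changes lie between -0.36 and -0.18.

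Mitochondrial synthetases had a median change of -0.10, with 14 negative and 2 positive changes. None passed the test in limma, with adjusted p between 0.128 and 0.980, and 2 had an unadjusted p under 0.05, Rars2 on the lower and Fars2 on the higher side. Rars2, for arginine, differed by -0.14 (limma adjusted p = 0.162). The most negative changes were those of Hars2 at -0.19 (limma adjusted p = 0.197), Pars2 at -0.18 (0.225) and Wars2 at -0.15 (0.251), for histidine, proline and tryptophan. Hars2 stands next to Hars on chromosome 18. Ears2 (glutamate), Vars2 (valine), Lars2 (leucine), Aars2 (alanine) and Nars2 (asparagine) differed by -0.14, -0.12, -0.10, -0.10 and -0.094. Sars2 (serine), Tars2 (threonine), Iars2 (isoleucine), Mars2 (methionine) and Yars2 (tyrosine) differed by -0.071, -0.044, -0.027, -0.016 and -0.0052.

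Fars2, the mitochondrial phenylalanyl-tRNA synthetase, was at 9.61, 9.68, 9.91, 9.85 and 9.76 in Exercise tumours and at 9.57, 9.52, 9.67, 9.60 and 9.60 in non-Exercise tumours. Array 300 overlapped the non-Exercise range, and the other 4 Exercise arrays lay above it. The change was 0.17 ± 0.071 (SE, limma adjusted p = 0.128). Cars2, for cysteine, differed by 0.082 (limma adjusted p = 0.427).

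Whether the cytosolic enzyme of an amino acid differed from its mitochondrial partner was tested on the difference itself in 16 pairs. No pair passed after Benjamini-Hochberg adjustment over the 16, and 5 had an unadjusted p under 0.05 (two-sided exact permutation tests over 252 assignments of arrays, smallest possible p 0.00794). With so high a smallest p, no pair could pass the adjustment over 16 on its own, so 0 passing pairs does not show equal changes. The cytosolic change was the more negative in 13 pairs. Yars minus Yars2 differed between groups by -0.35 (exact permutation p = 0.00794, adjusted 0.0635), and Farsb minus Fars2 by -0.29 (exact permutation p = 0.00794, adjusted 0.0635). In both, every Exercise tumour was below every non-Exercise tumour. Farsa minus Fars2 gave -0.38 (exact permutation p = 0.0159, adjusted 0.0847) and Cars minus Cars2 -0.36 (exact permutation p = 0.0238, adjusted 0.0952). Mars1 minus Mars2 gave -0.15 (exact permutation p = 0.0317, adjusted 0.102). Arginine and valine ran the other way, with Rars minus Rars2 at 0.10 and Vars minus Vars2 at 0.11 (exact permutation p = 0.214 and 0.0556). Leaving out Exercise array 301 or 310 gave 3 passing pairs each, Yars with Yars2 and Farsb with Fars2 in both cases. The third pair was Cars with Cars2 without array 301, and Vars with Vars2 without array 310. Each passed (exact permutation, adjusted p = 0.0423) only because 3 pairs reached the smallest possible p together, and none passed on its own. Vars minus Vars2 ran the other way, at 0.071 to 0.14 with each array left out.

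**Figure D3:**
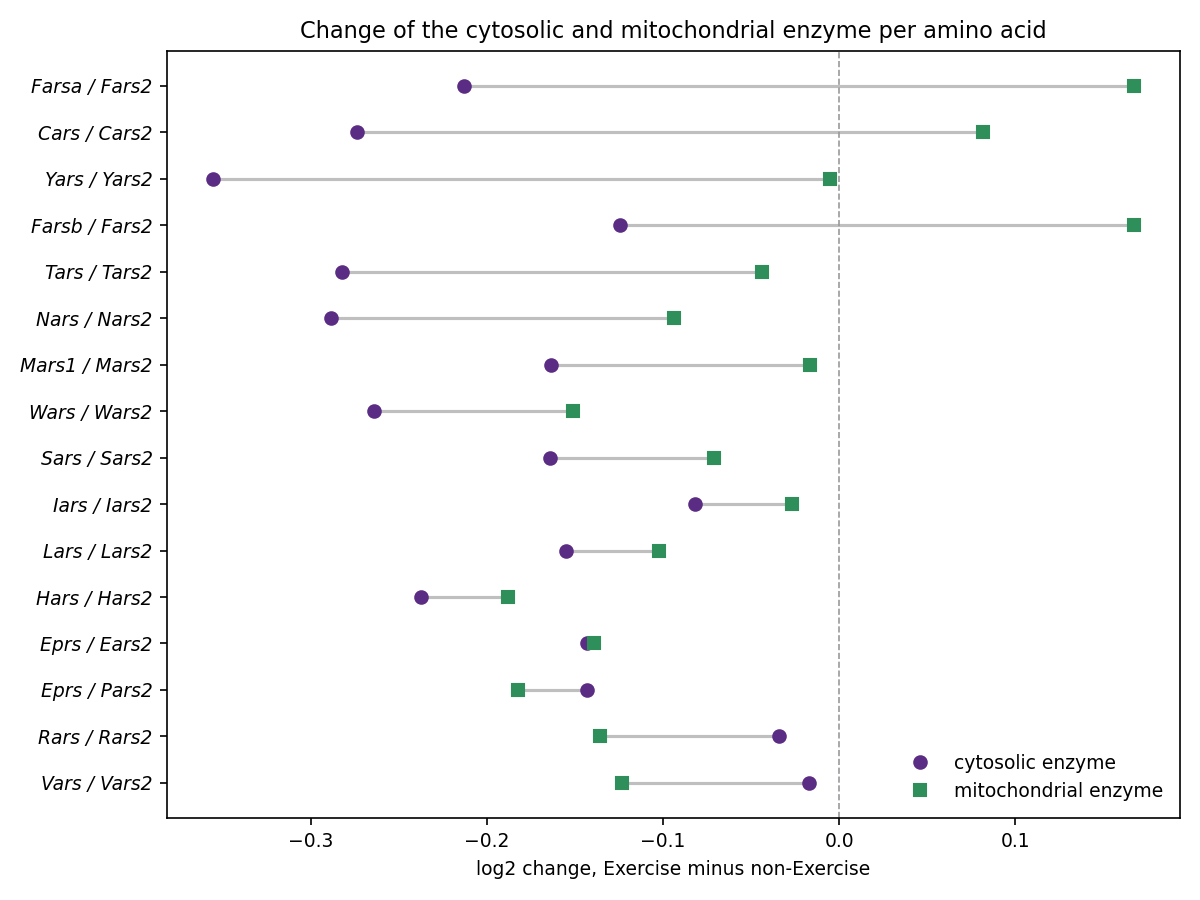
Log2 change, Exercise minus non-Exercise, of the cytosolic (purple circle) and mitochondrial (green square) enzyme of each amino acid, joined by a line; Eprs and Fars2 appear in 2 pairs each. The circle lies left of the square in 13 of 16 pairs, and 0 pairs passed the adjusted threshold.

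Single tumours differed. Array 310, an Exercise tumour, had the lowest level of all 10 arrays in 15 of 18 cytosolic and 8 of 16 mitochondrial genes. The mean centred level of the 18 cytosolic genes was -0.098, -0.012, 0.0071, -0.065 and -0.26 in the Exercise arrays and -0.0018, 0.064, 0.14, 0.12 and 0.10 in the non-Exercise arrays. For the 16 mitochondrial genes the mean was -0.019, -0.050, 0.033, -0.014 and -0.12 in the Exercise arrays and 0.053, 0.055, 0.035, 0.082 and -0.048 in the non-Exercise arrays. The SD between tumours was larger in the Exercise group for 15 of the 18 cytosolic genes. The share over all genes was not taken for this count or for the genes lowest in array 310. Neither is shown to be particular to the synthetases. Without array 310, 4 cytosolic genes were lower, against 9.25% of all genes, and their median change was -0.13.

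Markers of other cells differed between the groups as well. Leukocyte markers were higher in 7 of 13, with a mean centred level of -0.39 to 0.81 in the Exercise group and -0.51 to -0.26 in the non-Exercise group. Fibroblast markers were higher in 5 of 7, at -0.27 to 1.13 in the Exercise group, with the top in array 310, and -0.89 to -0.0048 in the non-Exercise group. Keratinocyte and muscle markers passed in 0 of 8 each in limma, also at an unadjusted p under 0.05. Muscle markers were uneven between arrays, at -1.15 to 1.47 in the Exercise group and -0.60 to 0.21 in the non-Exercise group. Adipocyte markers passed in limma in 1 of 7 (higher) and erythroid markers in 1 of 2 (lower). Endothelial markers passed in 1 of 7 (Cldn5, lower by 0.50). The other endothelial changes were positive, from 0.014 to 0.38, and the median of the 7 was 0.26. Without the 3 arrays with hepatocyte transcripts, leukocyte markers were higher in 3 of 13 (Itgam, Cd68 and Lyz2), with Cd3e, Cd3g and Cd2 turned negative, and Ptprc differed by 0.63 (limma adjusted p = 0.131). Fibroblast markers were then higher in 3 of 7, hepatocyte markers in 0 of 13 with 1 lower, and adipocyte markers in 0 of 7. The part of these markers in the synthetase results was not tested. In the same 7 arrays 3 cytosolic genes were lower, against 8.09% of all genes: Yars at -0.35 (limma adjusted p = 0.00747), Wars at -0.27 (0.00903) and Qars at -0.23 (0.0224). Nars and Hars were then at -0.17 each (limma adjusted p = 0.144 and 0.171). Without array 301, with its low Xist, 7 cytosolic genes were lower, against 1999 of all 19938 genes.

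**Figure D4:**
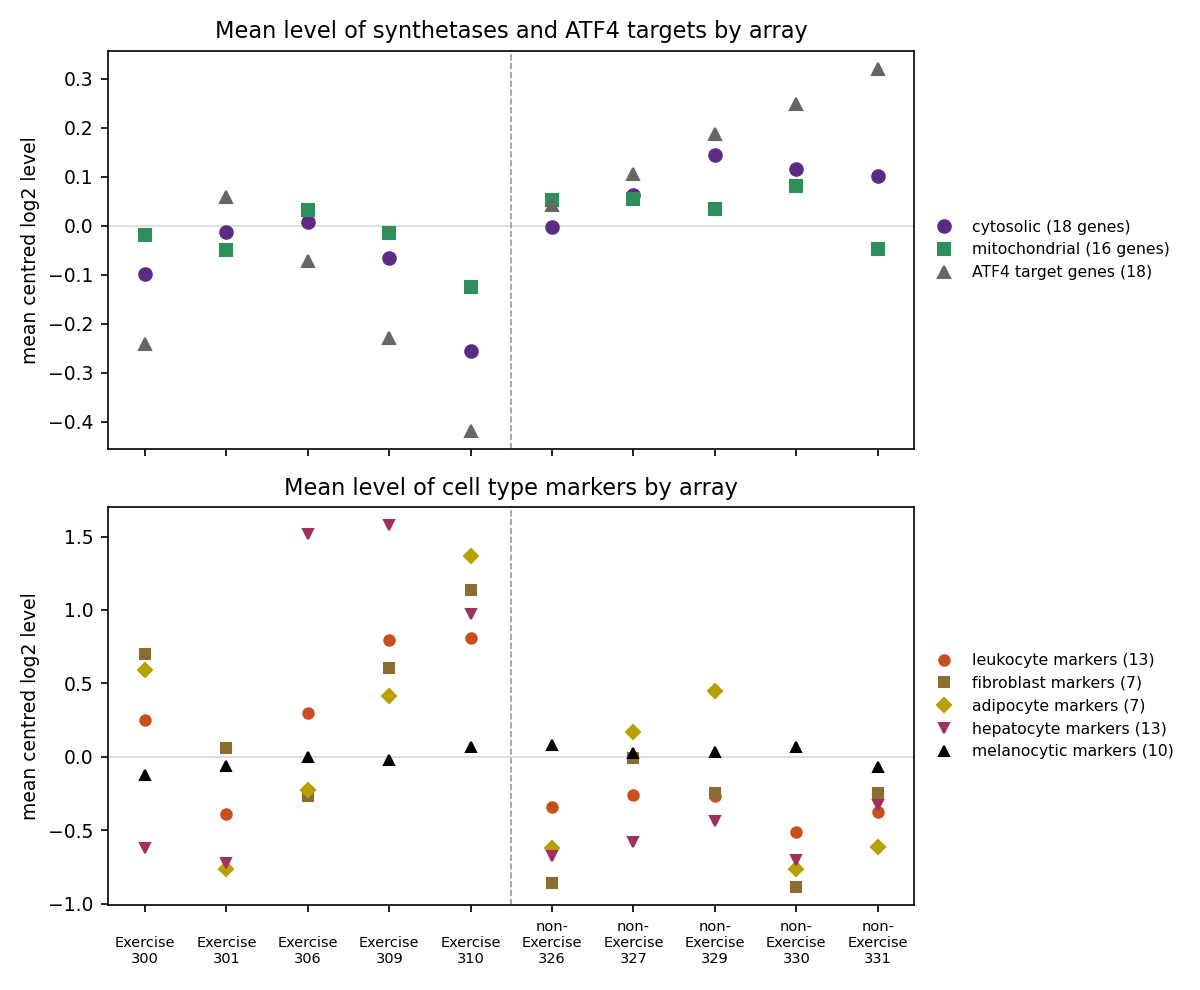
Mean centred log2 level by array, the 5 Exercise arrays left of the dashed line and the 5 non-Exercise arrays right of it: synthetase classes and ATF4 target genes (top), cell type markers (bottom). Array 310 is lowest for cytosolic synthetases at -0.26 and for ATF4 target genes at -0.42, and it is highest for fibroblast markers at 1.13.

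The count of cytosolic genes depended on how arrays were scaled. It was 10 of 18 in the table as deposited, which added Cars, Farsa, Gars, Mars1 and Tars, and 14 of 18 with arrays centred on their medians. Over all genes 10.4% and 15.4% were then lower. The deposited medians followed the groups: each Exercise array lay above each non-Exercise array, except that array 310 lay below array 330. Compared with the deposited table, centring lowered the change of every gene by the same amount. The median change over all genes was 0.0096 in the deposited table and negative with centring. That of the cytosolic genes was -0.18 and -0.24, so the count of 14 includes a shift shared by all genes. Centring also moved the share of higher among all called genes to 23.4%, against 37.4% after quantile normalization. In the 14-gene setting 2 mitochondrial genes, Rars2 and Vars2, were lower as well.

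**Figure D5:**
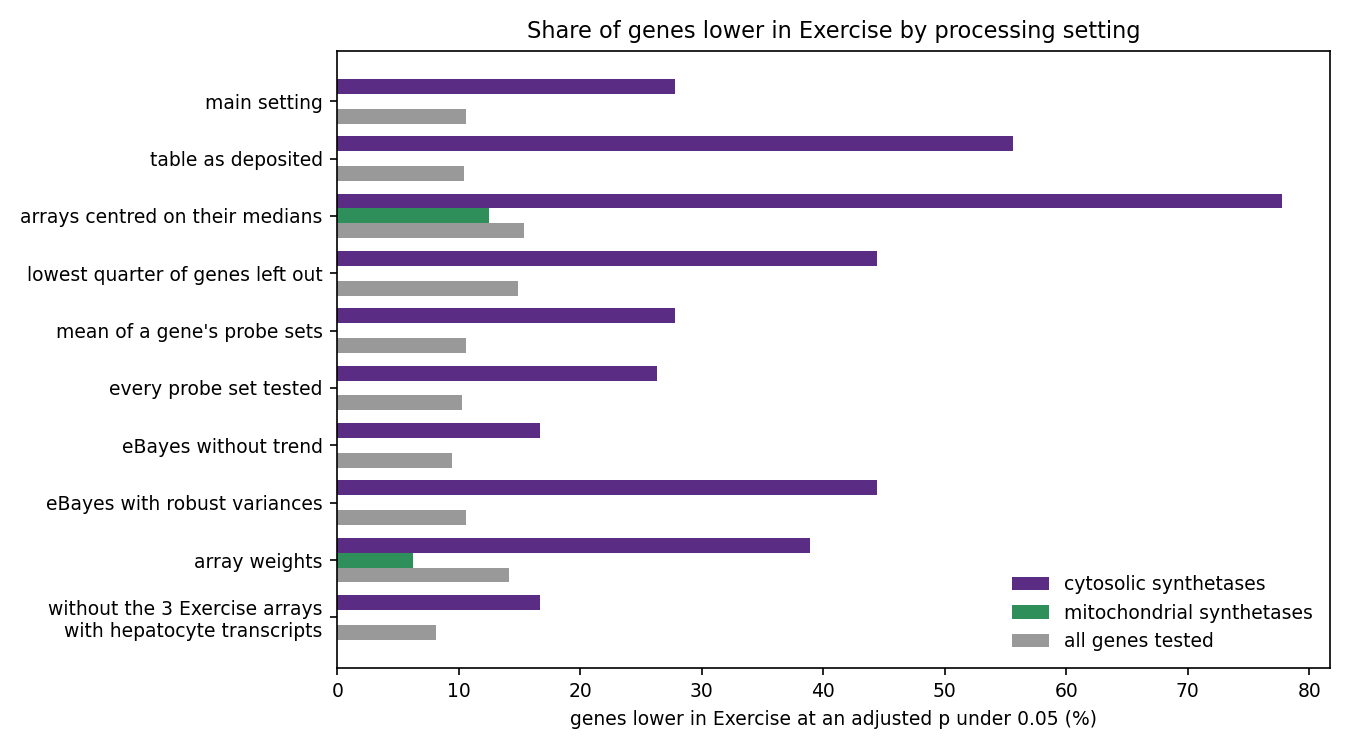
Percent of genes lower in Exercise at an adjusted p under 0.05 for cytosolic synthetases (purple), mitochondrial synthetases (green) and all genes tested (grey) under 10 settings. The purple bar ranges from 16.7 to 77.8% while the grey bar ranges from 8.09 to 15.4%.

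Among the partners of the synthetases, the scaffold proteins of the multisynthetase complex, Aimp1, Aimp2 and Eef1e1, passed in 0 of 3 in limma. At an unadjusted p under 0.05, 2 were lower, Aimp1 at -0.19 (limma adjusted p = 0.0598) and Aimp2 at -0.16 (0.113). Aimp1 passed in the table as deposited (limma adjusted p = 0.0373), and both passed with arrays centred on their medians (0.0147 and 0.0196). Of 5 relatives and proofreading genes 2 passed, both lower. Prorsd1, a relative of the editing domain of prolyl-tRNA synthetase, fell by 0.50 (limma adjusted p = 0.00215) and Tarsl2, a threonyl-tRNA synthetase relative, by 0.45 (limma adjusted p = 0.0172). Gatb, a subunit of the amidotransferase that makes mitochondrial glutaminyl-tRNA, fell by 0.30 (limma adjusted p = 0.0460), 1 of 3 subunits to pass. Of 10 mitochondrial translation factors 2 passed, both lower: Tsfm, an elongation factor, by 0.45 (limma adjusted p = 0.00117), and Mrrf, which recycles ribosomes, by 0.22 (0.0238). At an unadjusted p under 0.05 in limma 5 of the 10 were lower, against 17.96% of all genes. The median change of the 10 was -0.17. Gatb did not pass in the table as deposited, and neither Gatb nor Tarsl2 passed without the 3 hepatocyte arrays. Eefsec, which brings selenocysteinyl-tRNA to the ribosome, fell by 0.27 (limma adjusted p = 0.00186), 1 of 3 lower among 6 selenocysteine genes. Of the other two, Sephs2 did not pass in the table as deposited, and neither Sephs2 nor Sepsecs passed without the 3 hepatocyte arrays (limma adjusted p = 0.127 and 0.145).

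Among 5 genes of cytosolic elongation and tRNA export 3 passed, all lower and all elongation factors. Eef1a1, which delivers charged tRNA, differed by -0.13, Eef1b2 by -0.13 and Eef2 by -0.12. None of the 3 passed in the table as deposited or without the 3 hepatocyte arrays. Xpot, the tRNA exporter, differed by -0.013 (limma adjusted p = 0.950). Amino acid transporters were lower in 4 of 9 and higher in 1: Slc7a5 fell by 0.32, Slc1a4 by 0.74, Slc6a9 by 0.52 and Slc3a2, the partner of Slc7a5, by 0.14, while Slc38a2, named after its value was seen, rose by 0.17. Without the 3 hepatocyte arrays 3 were lower and 0 higher. Slc3a2 and Slc38a2 did not pass there (limma adjusted p = 0.0693 and 0.0943) or in the table as deposited (0.0615 and 0.0522).

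Around ATF4, Atf4 itself was at 11.80, 11.98, 11.63, 11.62 and 11.54 in Exercise tumours and at 11.61, 11.65, 11.71, 11.82 and 11.88 in non-Exercise tumours, with a change of -0.015 (limma adjusted p = 0.945). The groups overlapped, and without the 3 hepatocyte arrays the change was 0.16 (limma adjusted p = 0.225). Eif2ak4, which makes GCN2, differed by -0.017 (limma adjusted p = 0.915). Its regulators were higher: Gcn1, needed for GCN2 activation, rose by 0.24 (limma adjusted p = 0.00744) and Impact, which inhibits it, by 0.39 (0.00123). Eif2ak3, which makes the kinase PERK, fell by 0.31 (limma adjusted p = 0.0349). Without the 3 hepatocyte arrays Gcn1 and Eif2ak3 did not pass (limma adjusted p = 0.0758 and 0.115). Among 18 listed ATF4 target genes, which include metabolic enzymes, regulators and secreted proteins, 7 were lower and 1 higher, with a median change of -0.30. Ddit4, an inhibitor of mTORC1, fell by 1.09, Chac1, which degrades glutathione, by 0.96, Sesn2 by 0.87 and Shmt2, of mitochondrial serine and glycine metabolism, by 0.52. Asns, the asparagine synthetase, differed by -0.011 (limma adjusted p = 0.958), and Got1, an aspartate aminotransferase, rose by 0.30. Without the 3 hepatocyte arrays 4 were lower and 1 higher, with a median of -0.20. Of 8 genes listed as ATF4 or its partners, Nupr1 fell by 0.55, Atf5 by 0.37 and Atf3 rose by 0.40. Trib3 differed by -0.59 (limma adjusted p = 0.0540). It passed in the table as deposited (limma adjusted p = 0.0455) and with arrays centred on their medians (0.0257). Of the 8, 3 were lower and 2 higher in the table as deposited, and 4 lower and 0 higher with centring. Without the 3 hepatocyte arrays 0 of the 8 passed in limma. Gcn1 and Atf3, and Slc38a2 among the transporters, did not pass with arrays centred on their medians.

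Interferon gamma induces Wars in human cells. Of 10 interferon gamma response genes, 2 were higher, Cxcl10 by 1.47 and Psmb9 by 1.40, with a median change of 1.01 over the list. The list rested on the 3 hepatocyte arrays. Without them its median was -0.050 and 6 genes turned sign, among them Irf1 at -0.093. Cxcl10 was still higher, by 1.04, and Psmb9 differed by 0.12 (limma adjusted p = 0.794). The part of the interferon response in the Wars result was not tested.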

How the data were processed

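RNA of 10 melanoma tumours was hybridised to 10 Affymetrix arrays. The submitters' processing notes name PLIER, its version not given in the sources used here. Values deposited by the authors are on what is taken to be a log2 scale, from their range of 4.66 to 14.55; the base, an offset and the scaling between arrays are not stated. Batches by scan or slide were not analysed here.

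The deposited array medians lay between 8.64 and 8.77, a gap of 0.126 that exceeded 0.1, so quantiles were normalized between arrays (limma 3.58.1, R 4.3.3). Of 35556 probe sets, 21789 had 1 gene symbol, 1621 had several and 12146 were not named; symbols were checked by Entrez identifier in RefSeq, where 21698 matched. The probe set with the highest mean stood for each of the 999 genes with several. Dim probe sets were kept. The 2 groups were compared by lmFit and by two-sided eBayes with a trend on intensity, with Benjamini-Hochberg adjustment over 19938 genes at 0.05. Pairs of enzymes were compared by exact permutation over 252 assignments. The code was tested on simulated data. The number of arrays limits the precision. No 2 arrays shared more than 1 value, and pairs correlated at 0.960 to 0.996 across genes, which are not independent replicates.

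All members could be named. Of 11 context lists, up to 4 genes past the threshold with the smallest p were named, plus a fixed set. Members, lists, role groups and motifs were chosen with earlier results of these data known. Alternatives were the table as deposited, median centring, leaving out the fraction 0.25 of genes with the lowest mean, other rules for probe sets, eBayes without trend or with robust variances, array weights and each array left out. Leaving out the 3 arrays with hepatocyte transcripts was chosen after seeing the data. Plots were made in matplotlib 3.10.9 under Python 3.11.15.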

Additional observations from a re-analysis of the deposited data

Results flagged for a closer look

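Among the 68 gene and group combinations of 5 arrays that were examined, 3 held an array set apart from the other 4 by Dixon's criterion; chance sets apart about 1 in 20 groups. Gars was at 12.28 in Exercise array 310, with the nearest Exercise array at 12.48. Aars2, the mitochondrial alanyl-tRNA synthetase, was at 9.36 in non-Exercise array 331, with the nearest non-Exercise array at 9.61. Lars2, the mitochondrial leucyl-tRNA synthetase, was at 9.63 in the same array 331, with the nearest at 9.88.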

How the results depend on the processing

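Cytosolic genes lower in Exercise numbered 5 after quantile normalization, 10 in the table as deposited, 14 with arrays centred on their medians, 8 without the dimmest genes (a fraction of 0.25), 3 with eBayes without trend, 8 with robust variances, 7 with array weights, 3 without the 3 hepatocyte arrays, and 4 to 7 with each array left out. The share of all genes that were lower also moved. It was 10.6% after quantile normalization, 10.4% in the deposited table, 15.4% with centring and 14.9% without the dimmest genes. It was 9.44% without trend, 10.6% with robust variances and 14.1% with array weights. Without the 3 hepatocyte arrays it was 8.09%, and with each array left out 7.2 to 11.7%. Mitochondrial genes lower numbered 2 with centring, 1 (Hars2) with array weights and 0 otherwise. All genes higher numbered 753 without the 3 arrays, which leaves fewer samples. Yars and Wars passed under every alternative; Nars failed only without the 3 arrays, Qars without trend (limma adjusted p = 0.0574) and without array 326, and Hars without trend (0.0527), without the 3 arrays and in 6 of the 10 sets with 1 array left out. The cause was not tested. Changes near 0 turned sign. The median over all genes was 0.0096 in the deposited table and 0.0065 without the 3 arrays. Kars was -0.019 with centring, and Eprs minus Pars2 was -0.048 in the deposited table and with centring. With array weights Mars2 was 0.0040, Rars 0.0089, Vars 0.016 and Yars2 0.017. Without the 3 arrays Iars2 was 0.024, Mars2 0.071, Nars2 0.031, Rars 0.011, Yars2 0.12, Hars minus Hars2 0.086 and Eprs minus Ears2 0.041. With each array left out, ranges were -0.073 to 0.011 for Iars2, -0.047 to 0.033 for Mars2, -0.086 to 0.045 for Rars, -0.086 to 0.014 for Tars2, -0.058 to 0.035 for Vars, -0.042 to 0.036 for Yars2, -0.087 to 0.019 for Hars minus Hars2, -0.11 to 0.0086 for Iars minus Iars2, -0.11 to 0.027 for Lars minus Lars2, -0.043 to 0.029 for Eprs minus Ears2 and -0.052 to 0.10 for Eprs minus Pars2, and 0 to 3 pairs passed. Of the 32 context genes past the threshold, 24 passed in the deposited table, 29 with centring and 14 without the 3 arrays, and 0 of the 32 turned sign; Atf4, Asns and Xpot, which did not pass, turned positive without the 3 arrays. No paired analysis was possible because the array numbers are not shared between groups.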
